A study of Mus musculus with 84 samples.

Results

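The 84 libraries of dissected mouse ventrolateral striatum were ranked by the level of Mbp, the gene for myelin basic protein, and the ends of that ranking were compared. The level used was the Mbp count divided by the sum of the library's column, scaled to CPM, the usual depth-corrected unit of RNA-seq. The 21 libraries with the highest Mbp form the myelin-rich side, the 21 with the lowest form the myelin-poor side, and the 42 libraries between them form neither. The sides were chosen on a measured value, so every difference between them is given as a description of what moved with Mbp. It tests no treatment. Tests are given of the slope over Mbp in the middle 42 libraries, which were ranked but placed on neither side, of the make-up of the sides by label, of the side by group interaction, and between the High and Low Drinker groups.

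The animals were naïve adult mice of the selected lines SOT and NOT, bred for a pair of traits, ethanol preference and ethanol withdrawal, and sampled at the generation named S4. No library came from a treated animal. The labels assign 44 libraries to the group High Drinker and 40 to Low Drinker, with both sexes in each, and the sources used here do not pair those names with SOT and NOT. Each library carries its own sample number, but the labels do not say that each came from a separate animal, so p-values measure the spread between these libraries. The striatum was cut out of frozen brains by hand.

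Myelin is the lipid-rich membrane that oligodendrocytes wrap around axons. In the striatum it lies in the fibre bundles that cross the tissue, and the region borders the white matter of the corpus callosum and the external capsule. Mature oligodendrocytes make the myelin proteins, whereas their precursors, the cells that express Pdgfra and Cspg4, make almost none. In bulk tissue, more oligodendrocytes and more RNA per oligodendrocyte cannot be told apart, and neither can the area of white matter in a dissected piece.

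The promoters of 4 oligodendrocyte genes are shown because these genes moved together with Mbp across the libraries: Mag (myelin-associated glycoprotein, chromosome 7, 30899176 to 30914873), Mobp (a protein of compact myelin, chromosome 9, 120149742 to 120181484), Cnp (an enzyme of the myelin membrane, chromosome 11, 100574904 to 100591729) and Opalin (a membrane protein of oligodendrocyte processes, chromosome 19, 41062474 to 41077113). Each runs from 250 bases before to 50 bases after an annotated start of the gene, is read on the gene's own strand from RefSeq on the build GRCm38.p6, and has in capitals the matches to ACAAAG or ACAATG, the core bound by SOX factors such as Sox10, on either strand. The windows are chr7:30914814-30915113 on the minus strand for Mag, chr9:120149492-120149791 on the plus strand for Mobp, chr11:100574689-100574988 on the plus strand for Cnp and chr19:41077064-41077363 on the minus strand for Opalin.
Mag: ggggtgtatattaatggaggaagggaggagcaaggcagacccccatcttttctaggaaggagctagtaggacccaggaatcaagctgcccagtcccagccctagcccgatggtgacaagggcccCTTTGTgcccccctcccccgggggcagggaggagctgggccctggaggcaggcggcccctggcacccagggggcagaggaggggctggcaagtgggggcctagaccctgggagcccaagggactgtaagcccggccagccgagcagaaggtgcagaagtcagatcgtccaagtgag
Mobp: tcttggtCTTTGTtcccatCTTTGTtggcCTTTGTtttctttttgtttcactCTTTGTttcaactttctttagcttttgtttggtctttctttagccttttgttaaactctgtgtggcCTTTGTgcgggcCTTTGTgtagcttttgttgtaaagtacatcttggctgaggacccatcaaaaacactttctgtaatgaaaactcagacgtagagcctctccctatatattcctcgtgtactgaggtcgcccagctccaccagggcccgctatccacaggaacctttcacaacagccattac
Cnp: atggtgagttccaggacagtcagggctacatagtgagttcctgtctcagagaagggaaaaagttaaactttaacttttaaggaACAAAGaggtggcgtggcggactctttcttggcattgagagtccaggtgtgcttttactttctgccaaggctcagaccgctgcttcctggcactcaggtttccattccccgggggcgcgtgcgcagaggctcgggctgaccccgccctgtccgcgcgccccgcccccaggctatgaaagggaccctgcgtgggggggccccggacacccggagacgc
Opalin: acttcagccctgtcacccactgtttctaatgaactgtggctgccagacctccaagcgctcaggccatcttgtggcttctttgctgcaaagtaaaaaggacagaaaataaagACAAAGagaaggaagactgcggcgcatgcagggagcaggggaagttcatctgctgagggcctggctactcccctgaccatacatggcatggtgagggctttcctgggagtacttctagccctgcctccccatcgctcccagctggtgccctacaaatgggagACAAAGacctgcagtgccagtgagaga
The Mobp window held 6 such matches, Opalin 2, and Mag and Cnp 1 each. Of the 23 promoter windows of the compact myelin genes in the table, 47.8% held a match, against 28.6% of all 32851 windows. For CTGGCAC or CTGGTAC, the letters bound by Myrf, the shares were 26.1% and 7.10%, and for the E-box CAGCTG 21.7% and 16.3%. The Myrf and E-box letters share CTG, so 1 stretch can count for both. A match is a description of the letters and not a bound site. RefSeq lists 3 starts for Mag, of which 1 is shown.

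Depth ran from 22190363 to 41300401 counts per library. The sides were alike in depth: the median was 31771546 counts in the myelin-rich and 31695452 in the myelin-poor libraries. A striatal marker varied widely on both sides: Ppp1r1b, the signalling protein of medium spiny neurons, ran from 173 to 2211 CPM in the myelin-rich and from 80.1 to 1736 CPM in the myelin-poor libraries. A group of 6 libraries correlated less with the others than the rest did. Among them Low Drinker 8 and 34 were myelin-rich, Low Drinker 32 and 33 myelin-poor, and High Drinker 4 and 17 on neither side. Low Drinker 8 had the highest Mbp of all libraries and Low Drinker 32 the lowest. Another myelin-rich library, Low Drinker 2, held the highest level of Tcf7l2 (82.3 CPM) and Slc17a6 (166 CPM), genes strongly expressed in the thalamus, where the medians of the side were 4.19 and 11.6 CPM. Counts with and without these libraries are given below.

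**Figure D1:**
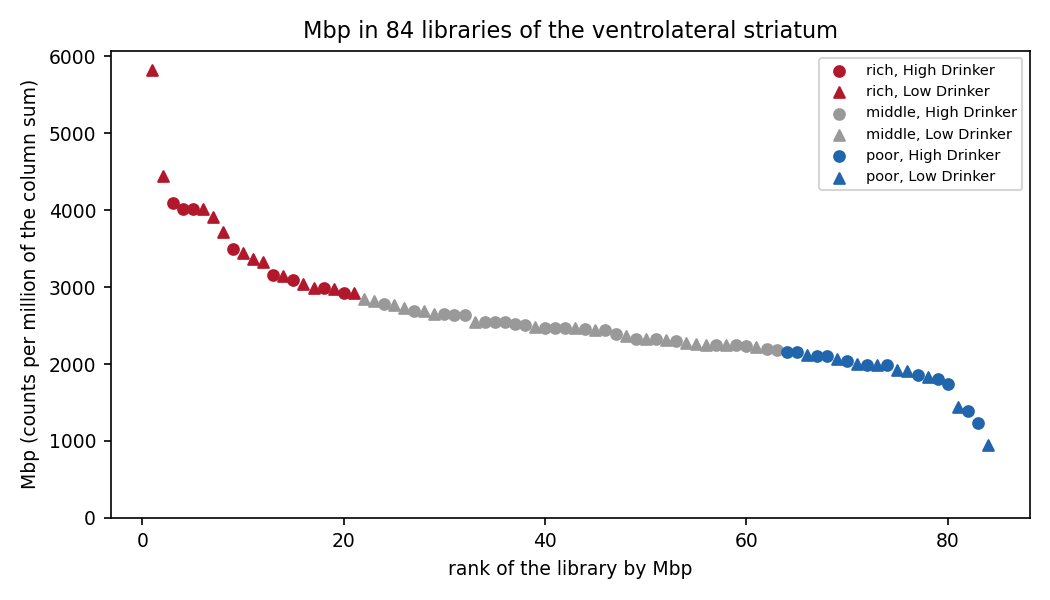
Mbp in each of the 84 libraries against its rank, in CPM of the column sum, coloured by side and with circles for High and triangles for Low Drinker libraries. The highest library, at 5829 CPM, lies well above the next, while the edges of the sides at ranks 21 and 64 fall on a continuous curve.

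Mbp was at 3569 ± 697 CPM (SD, n = 21) in the myelin-rich, 2463 ± 188 CPM (n = 42) in the middle and 1846 ± 327 CPM (n = 21) in the myelin-poor libraries. Within the myelin-rich side it ran from 2924 over a median of 3369 to 5829 CPM, and within the myelin-poor side from 953 over 1982 to 2162 CPM. The libraries just inside and outside the edges were close, at 2924 and 2851 CPM for ranks 21 and 22 and at 2183 and 2162 CPM for ranks 63 and 64. The sides are therefore the ends of a gradient and not separate classes. The highest library held 6.12 times the Mbp of the lowest, and the side means differed 1.93-fold.

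Labels and quality measures did not separate the sides. The ranking did not use them, except for library size, by which the Mbp count was divided. Of the myelin-rich libraries 8 were High and 13 Low Drinker, against 12 and 9 of the myelin-poor (Fisher's exact test, two-sided, p = 0.354). Females were 11 of the myelin-rich and 8 of the myelin-poor libraries (p = 0.536, the same test). By the sample numbers that end the titles the libraries fall into 3 sets, called sheet sets here, and these held 10, 8 and 3 of the myelin-rich and 10, 10 and 1 of the myelin-poor libraries (exact p = 0.615). Library size, detected genes, the share of the ribosomal RNA gene Gm42418, a score of 5 medium spiny neuron genes and the correlation with the other libraries gave permutation p-values from 0.284 to 0.833. None of these 8 tests passed after Benjamini-Hochberg adjustment (lowest adjusted p = 0.702), which does not show that the sides were equal in them.

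Between the sides, 498 of 16763 genes were higher (2.97%) and 199 lower (1.19%), 4.16% in all, in the myelin-rich libraries at an adjusted p under 0.05, with group in the model and Mbp left out. The median log2 fold change was 0.41 over the higher and -0.33 over the lower genes, and 23 genes differed by more than 1 on the log2 scale. Without the 6 libraries that stood apart the counts were 532 (3.18%) and 275 (1.64%), together 4.82%, and without Low Drinker 2 they were 460 and 197. Of the higher genes 74 were members of the 8 oligodendrocyte lists, and of the lower genes 0 were. A further 407 higher and 198 lower genes were in none of the 26 lists. For 15 genes the values of the sides did not overlap, all of them higher on the myelin-rich side (0.0895% of those tested), against 0 lower (0%). These were Mobp, Mog, Bcas1, Ppp1r14a, Mag, Galnt6, Prr18, Gjb1, Cnp, Pllp, Ttyh2, Litaf, Ndrg1, Qdpr and Csrp1.

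The genes of compact myelin and the myelin membrane moved as a block. Of 21 tested members 19 were higher and 0 lower, with a median log2 fold change of 0.75, against -0.0036 over all genes tested. After scaling between libraries (normalised CPM, used for all genes from here on), Mobp ran from 778 over a median of 1041 to 1848 CPM in the myelin-rich and from 262 over 621 to 737 CPM in the myelin-poor libraries. Every myelin-rich library was thus above every myelin-poor one, and the log2 fold change of 0.99 ± 0.10 (SE) was the largest of the list. Mobp shares exon sequence with another gene on its strand, so its count may hold reads of both.

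Mag, the receptor-like protein of the inner myelin layer, was at 239 to 411 CPM (median 294) in the myelin-rich and at 83 to 209 CPM (median 173) in the myelin-poor libraries, a log2 fold change of 0.87 ± 0.08. Cnp, which keeps the cytoplasmic channels of myelin open, was at 376 to 636 CPM (median 450) against 159 to 360 CPM (median 297), or 0.76 ± 0.08. Mog, a protein of the outermost myelin layer, was at 63.6 to 129 CPM against 26.6 to 63.5 CPM, or 0.93 ± 0.08, so that its sides met without overlapping. Mal, a proteolipid of myelin vesicles, ran from 218 to 462 CPM against 85.9 to 234 CPM, so its sides overlapped at their edges.

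The remaining members of the list graded downwards. Plekhb1, Tspan2, Cd9, Cmtm5 and Jam3 passed at 0.66, 0.61, 0.48, 0.48 and 0.33, and the membrane proteins Tmem88b and Tmem125 at 0.78 and 0.77. Mal differed by 0.87 ± 0.09, Cldn11, which forms the tight junctions of the sheath, by 0.85 ± 0.09, and Ermn, a cytoskeletal protein of late oligodendrocytes, by 0.75 ± 0.12. Among the smaller differences were those of Sirt2 at 0.33 ± 0.03 and the tetraspanin Cd81 at 0.22 ± 0.04. Whether expression in other cells bears on the size of a difference was not tested. The members that did not pass were Omg, an inhibitor of axon growth that neurons express too, at 131 ± 20.9 against 127 ± 11.4 CPM, and Gpm6b, a membrane glycoprotein of neurons and glia, at 869 ± 172 against 841 ± 138 CPM. Without the libraries that stood apart 19 members passed, as did 19 in sheet set 1 alone, where 2.61% of all genes did (1.62% higher), and 17 in sheet set 2 alone, where 0.793% did (0.716% higher and 0.0769% lower).

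**Figure D2:**
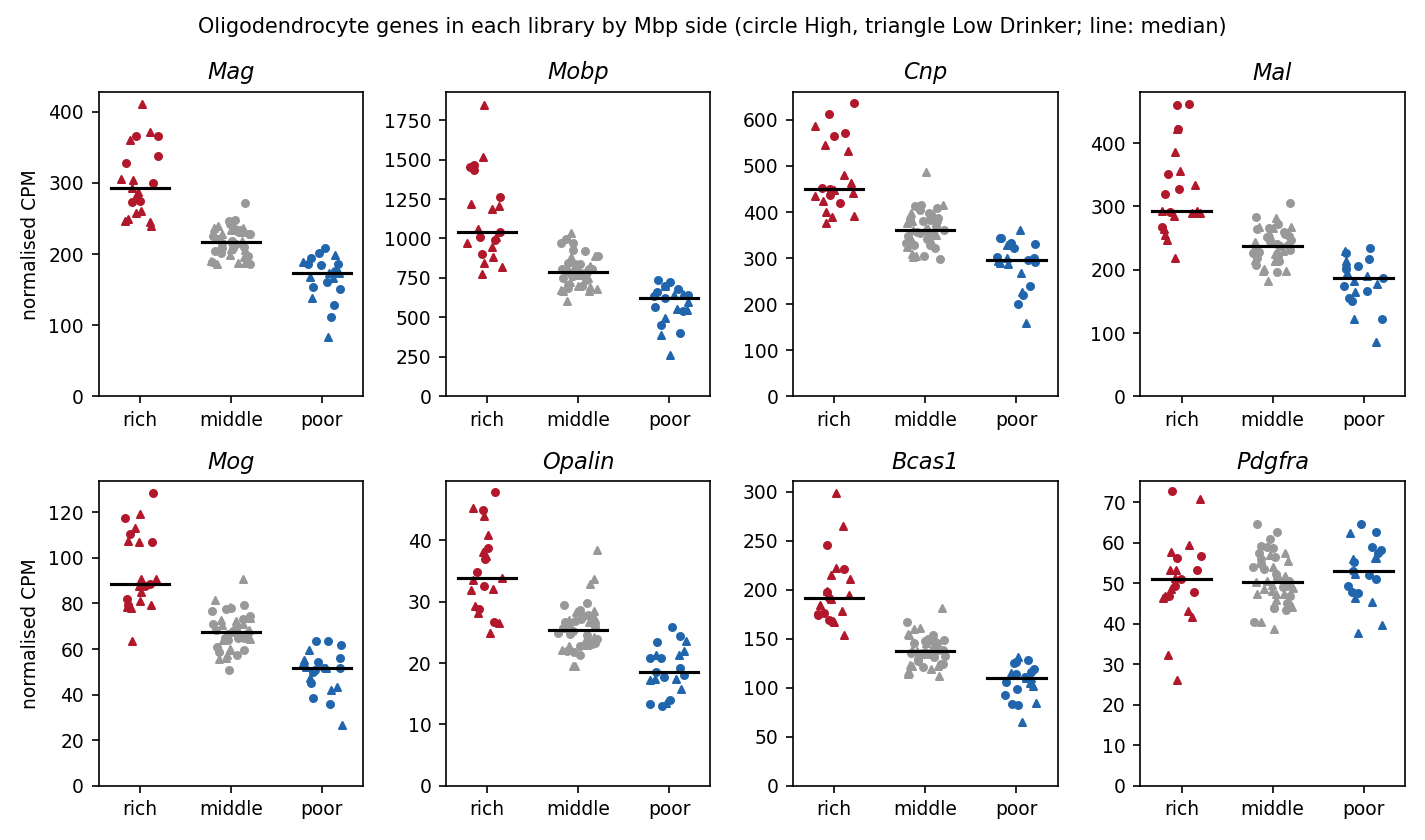
Normalised CPM of 8 oligodendrocyte lineage genes in each library of the myelin-rich, middle and myelin-poor sets, with circles for High and triangles for Low Drinker libraries and a line at the median. Mag, Mobp, Cnp, Mog and Bcas1 separate the outer sets, Mal and Opalin overlap slightly, and the precursor gene Pdgfra lies at about the same median, 51.1, 50.3 and 53.0 CPM, in all 3 sets.

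Genes by which oligodendrocytes couple to other cells and supply the axon followed the myelin proteins. Of 17 tested, 14 were higher and 0 lower, with a median of 0.61. The gap junction genes Gjb1 (0.79 ± 0.08) and Gjc3 (0.67 ± 0.09) were among them. So were Trf, the iron carrier transferrin, at 0.89 ± 0.13, Aspa, which splits N-acetylaspartate for lipid synthesis, at 0.65 ± 0.12, Apod, a lipid carrier, at 0.61 ± 0.08 Cryab, a small heat shock protein, at 0.71 ± 0.07 and Car2, a carbonic anhydrase, at 0.48 ± 0.07. The 3 members that did not pass were the potassium channel Kcnj10 (239 ± 53.5 against 208 ± 41.6 CPM), glutamine synthetase Glul (1054 ± 137 against 1023 ± 125 CPM) and the lactate carrier Slc16a1 (32 ± 4.82 against 28.8 ± 2.38 CPM). Astrocytes or vessels express these genes too, and whether that bears on their differences was not tested.

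Among 24 other genes of mature oligodendrocytes, 18 were higher and 0 lower, with a median of 0.60. Klk6, a secreted protease, showed the largest difference at 1.249 ± 0.20, from 2.54 to 10.4 CPM in the myelin-rich and from 0.146 to 3.86 CPM in the myelin-poor libraries. Ppp1r14a, an inhibitor of myosin phosphatase, differed by 0.87 ± 0.09, S1pr5, a receptor of sphingosine phosphate, by 0.79 ± 0.07, Anln, an actin-binding scaffold, by 0.76 ± 0.12, Hapln2, a link protein at the node of Ranvier, by 0.72 ± 0.09 and Enpp2, the enzyme autotaxin, by 0.59 ± 0.09. Padi2, which converts arginine in myelin basic protein to citrulline, did not pass, at 22.2 ± 11.4 against 19 ± 7.08 CPM. Ptgds, a prostaglandin synthase that the meninges and choroid plexus also express, varied within both sides and had medians of 144 and 123 CPM. Counting each gene of these 3 lists once, 51 of 62 were higher and 0 lower.

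Of 22 genes of myelin lipid synthesis 10 were higher and 0 lower, with a median of 0.15. Among those that passed, Fa2h, which hydroxylates fatty acids, differed by 0.80 ± 0.09, Ugt8a, which makes galactosylceramide, by 0.69 ± 0.14, Gal3st1, which sulphates it, by 0.55 ± 0.05 and the ceramide synthase Cers2 by 0.39 ± 0.05. The fatty acid synthase Fasn was at 432 ± 64.3 against 448 ± 41.3 CPM and did not pass. In cholesterol synthesis 1 of 26 genes was higher, the sterol isomerase Ebp at 0.21 ± 0.05, a share near the 2.97% of all genes, and the median was 0.02.

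Of 18 transcription factors of the lineage 8 were higher and 0 lower (median 0.25). Without Low Drinker 2 the numbers were 6 and a median of 0.15, with sex and sheet set in the model 6 and 0.12, and with DESeq2 8 and 0.14. Nkx6-2, a factor of late differentiation, differed most, at 0.81 ± 0.10, followed by Myrf, which switches on the myelin genes, at 0.65 ± 0.09 and Sox10 at 0.55 ± 0.07. Olig1 and Olig2, which precursors also express, differed by 0.42 ± 0.06 and 0.38 ± 0.06. The zinc finger gene St18 differed by 0.51 ± 0.15 and no longer passed without Low Drinker 2 (0.475) or Low Drinker 32 (0.45), or with sex and sheet set in the model (adjusted p = 0.0783). Among those that did not pass were Id2, Id4, Hes5 and Yy1, which hold cells undifferentiated or act in many cell types. Of 12 precursor markers 3 were higher, against 2.97% of all genes, and the median was -0.04. Pdgfra, the receptor that defines precursors, was at 50.7 ± 10.6 against 52.8 ± 7.17 CPM and the proteoglycan Cspg4 at 22.5 ± 3.69 against 23.5 ± 3.74 CPM. The 3 that passed were Olig2, Gpr17 (0.22 ± 0.07) and Neu4 (0.25 ± 0.06), of which Gpr17 marks cells that leave the precursor state. Without Low Drinker 2 or without Low Drinker 32 Gpr17 no longer passed, at 0.22 and 0.21, nor did it with sex and sheet set in the model (adjusted p = 0.072). Of 12 genes of newly formed oligodendrocytes 5 were higher, with a median of 0.19. The number was 4 without Low Drinker 2 or without Low Drinker 32, and 3 with sex and sheet set in the model. In sheet set 1 alone 1 passed (median 0.06), and in sheet set 2 alone 3 did (median 0.28). Bcas1 differed by 0.90 ± 0.08, from 153 to 299 CPM against 65.5 to 132 CPM, and Enpp6, a choline phosphodiesterase of new oligodendrocytes, by 0.65 ± 0.12. The scaffold gene Cnksr3 differed by 0.39 ± 0.09, and the calcium-sensing receptor Casr by 0.85 ± 0.24 at under 1 CPM. Casr did not pass with sex and sheet set in the model (adjusted p = 0.0563).

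**Figure D3:**
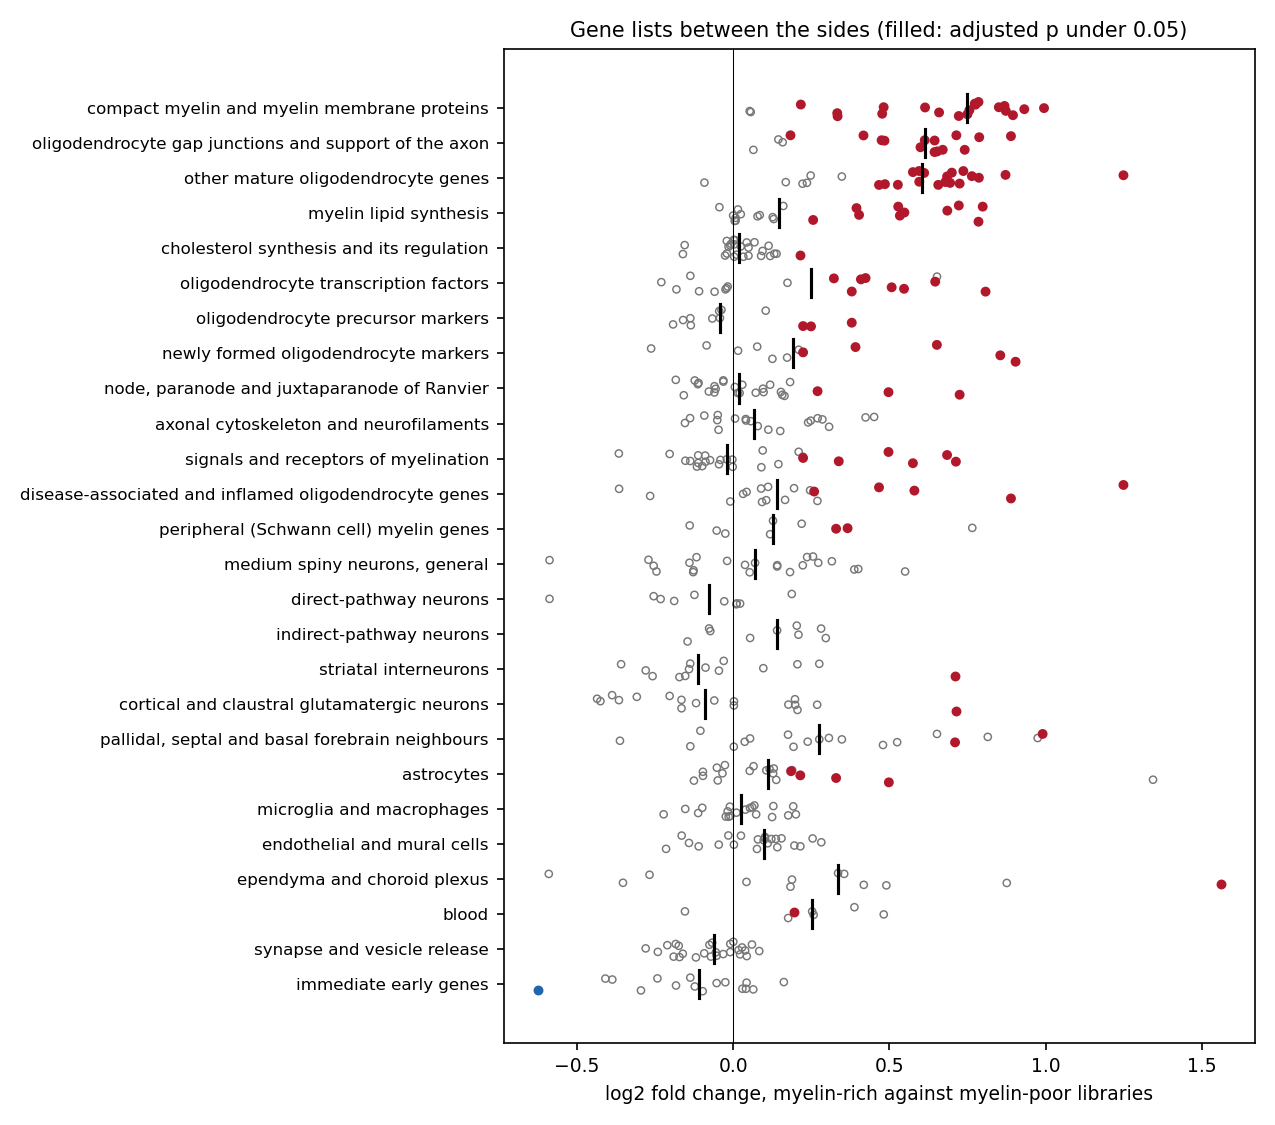
Log2 fold change between the myelin-rich and the myelin-poor libraries for each gene of the 26 lists, with filled points for an adjusted p under 0.05, open points for the rest and a bar at the median of each list. The first 3 lists have medians of 0.75, 0.61 and 0.60 while those of cholesterol synthesis, precursors and synapses are 0.02, -0.04 and -0.06, and Ttr, at 7.66, is counted in the median of its list but not drawn.

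Of receptors and signals of myelination 6 of 27 were higher and 0 lower, with a median of -0.02. Over all genes 2.97% were higher and 1.19% lower, which holds for each list below. The 6 are genes that oligodendrocytes carry: Lpar1, a lysophosphatidic acid receptor, at 0.71 ± 0.08, Gpr37 at 0.68 ± 0.10, Erbb3, which pairs with neuregulin receptors, at 0.58 ± 0.09, Lgi3 at 0.50 ± 0.08, Fgfr2 at 0.34 ± 0.08 and Gpr17. At the node of Ranvier 3 of 26 were higher (median 0.02): Hapln2, Lgi3 and Cntn2, which holds the juxtaparanode together, at 0.27 ± 0.08. Cntn2 no longer passed without the libraries that stood apart (0.25) or without Low Drinker 32 (0.24). The axon's own cytoskeleton gave 0 of 20 (median 0.07), near the share of all genes. Its neurofilament gene Nefm, at 240 ± 73.7 against 174 ± 51.1 CPM, did not pass, but passed without the libraries that stood apart and with the medium spiny neuron score described below. In a list of disease-associated oligodendrocyte genes 5 of 18 were higher (median 0.14): Klk6, Trf, the alarmin Il33 (0.47 ± 0.13), the receptor Il12rb1 (0.58 ± 0.14) and Anxa5 (0.26 ± 0.06). Il33 did not pass with sex and sheet set in the model (adjusted p = 0.0505). Of 9 peripheral myelin genes 2 were higher, Pmp22 at 0.37 ± 0.07 and S100b at 0.33 ± 0.06, both also expressed in brain glia. The Schwann cell gene Prx was near 0, with a highest value of 1.16 CPM.

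Few neuronal genes were called between the sides, as was the case for all genes (4.16%). Medium spiny neuron genes gave 0 of 23, direct-pathway genes 0 of 10, indirect-pathway genes 0 of 9 and synaptic genes 0 of 26, with medians of 0.07, -0.08, 0.14 and -0.06. The medians of the first 3 lists had opposite signs in the sheet sets, at 0.38, 0.08 and 0.40 in set 1 and -0.34, -0.36 and -0.36 in set 2, and that difference was not tested. The summed level of the medium spiny neuron list ran from 2363 to 22159 CPM in the myelin-rich and from 2114 to 19694 CPM in the myelin-poor libraries, so it varied widely within both. With a score of 5 such genes added to the model 1054 genes were higher (6.29%) and 853 lower (5.09%), 11.4% in all, including 10 of the 23 medium spiny neuron genes as lower. Whether that comes from the score itself was not tested. Striatal interneurons gave 1 of 14, Pvalb at 0.71 ± 0.22, which no longer passed without Low Drinker 2 (0.68) or with sex and sheet set in the model (adjusted p = 0.0523). Pallidal and basal forebrain genes gave 2 of 19 (median 0.28, but 0.13 in set 1 and -0.33 in set 2), Pvalb again and Kcng4, a modifier of potassium channels, at 0.99 ± 0.26. Cortical and claustral genes gave 1 of 18 (median -0.09, but -0.23 in set 1 and 0.23 in set 2), the secreted Wnt agonist Rspo1 at 0.71 ± 0.17, while Slc17a7, the vesicular glutamate carrier of cortical neurons, was at 1159 ± 615 against 1319 ± 542 CPM.

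Of 20 astrocyte genes 4 were higher (median 0.11), against 2.97% of all genes: Gfap, the filament protein that fibrous astrocytes of white matter carry, at 0.50 ± 0.13, S100b, Aldh1l1 (0.21 ± 0.06) and Aldoc (0.19 ± 0.05). Gfap no longer passed without the libraries that stood apart (0.39), nor Aldoc without the 3 farthest of them (0.16). Aqp4 was at 70.1 ± 17.9 against 76.8 ± 16.5 CPM and did not pass. Microglia gave 0 of 20 and endothelial and mural cells 0 of 22, near the share of all genes, and blood 1 of 7, the red-cell enzyme Bpgm, which was at 61.9 ± 5.54 against 53.9 ± 5.67 CPM. Immediate early genes gave 0 higher and 1 of 16 lower, Fosl2, at 35.9 ± 13.4 against 55.0 ± 18.6 CPM.

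Ependyma and choroid plexus genes gave 2 of 13 (median 0.34, but 0.45 in set 1 and -0.69 in set 2). These were Ttr and Prlr, of which Prlr rests on a few libraries. Ttr, the thyroid hormone carrier secreted by the choroid plexus, was at 0 to 103 CPM in the myelin-rich libraries, with a median of 0.412, and at 0 to 0.397 CPM in the myelin-poor libraries. Most values were thus near the floor, and the highest Ttr of all, 179 CPM, was in a library on neither side. Ttr fell below the low-count filter within each group, within sheet set 2 and in the middle libraries, so no fold change or slope is given there. The myelin-rich mean was 18.6 CPM, so the size of the fitted log2 fold change, 7.66, reflects the libraries with the most Ttr. Without the libraries that stood apart Ttr was at 7.71, and with sex and sheet set in the model at 6.83. It passed in both fits, which use sides chosen on a measured value and so describe these libraries only. Prlr, the prolactin receptor, had medians of 0.920 and 0.871 CPM and no longer passed without Low Drinker 2, 8 or 32, or with sex and sheet set in the model (adjusted p = 0.355). Foxj1, which defines ciliated ependyma, was at 8.54 ± 4.37 against 6.88 ± 3.63 CPM. The part of such neighbouring tissue in the differences between the sides was not tested.

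Beyond the oligodendrocyte lists, the largest higher genes by the naming rule included Ighm, the constant region of immunoglobulin M, at 1.08 ± 0.27, Col6a3 at 0.93 ± 0.21 and Thbs4 at 0.91 ± 0.27, both of the extracellular matrix, and Pdlim2, a linker of actin and LIM proteins, at 0.88 ± 0.09. Ighm ran from 12.9 to 135 CPM and from 9.49 to 56.4 CPM, so its sides overlapped widely. Pdlim2 ran from 12.3 to 25.1 CPM and from 5.73 to 12.4 CPM, touching at their edges. Thbs4 no longer passed without the libraries that stood apart (0.80) or without Low Drinker 32 (0.86). Given group, Pearson r with Mbp over all 84 libraries was 0.28 for Ighm, 0.45 for Col6a3 and 0.37 for Thbs4, against 0.91 for Pdlim2. For Kcng4, named above, it was 0.27. None of these genes passed for the slope over Mbp in the middle libraries, where that of Ighm was -0.26 ± 1.08.

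Genes lower in the myelin-rich libraries overlapped between the sides in every case. Of these 199 genes 198 were in none of the 26 lists, and whether they share a source was not tested. By the naming rule the largest included Cdhr1, a cadherin-like protein, at -1.28 ± 0.31, Trhr, the receptor of thyrotropin-releasing hormone, at -1.18 ± 0.26, Npsr1, the neuropeptide S receptor, at -1.05 ± 0.23 and Oxtr, the oxytocin receptor, at -0.94 ± 0.24. Trhr ran from 1.06 over a median of 5.54 to 9.88 CPM in the myelin-rich and from 2.28 over 11.4 to 35.7 CPM in the myelin-poor libraries. Npsr1 ran from 1.09 over 3.17 to 12.9 CPM against 3.28 over 7.32 to 11.8 CPM. Oxtr ran from 4.29 over 7.33 to 35.7 CPM against 6.90 over 17 to 33.2 CPM. Stra6, which takes up retinol, followed at -0.87 ± 0.26, the collagen Col5a2 at -0.83 ± 0.21, Stard5 at -0.70 ± 0.19, Adam12 at -0.69 ± 0.20, the semaphorin receptor Nrp2 at -0.69 ± 0.19 and Tnfaip8l3 at -0.65 ± 0.20. Without Low Drinker 2, Stra6, Adam12 and Tnfaip8l3 no longer passed (-0.85, -0.67 and -0.65), and Tnfaip8l3 did not without Low Drinker 8 (-0.62) or with sex and sheet set in the model (adjusted p = 0.0694). Without the 3 libraries farthest apart, Adam12 and Tnfaip8l3 did not pass (-0.68 and -0.59).

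Across all 84 libraries, and given group, the genes most like Mbp in log2 level were Mobp (Pearson r = 0.97), Bcas1 (0.97), Prr18 (0.96), Mag (0.95), Pllp (0.94), Mog (0.93), Cnp (0.93), Litaf (0.92), Gltp (0.92) and Mal (0.92). Pllp is plasmolipin, a myelin proteolipid, and Gltp carries glycolipids between membranes. Among the lowest values, which were weaker, were -0.54 for Wasf1, an actin regulator, -0.52 for the neuronal copine Cpne6, -0.51 for Gpr173 and -0.51 for Rgl1. Wasf1 was at 218 ± 28.7 against 252 ± 23.3 CPM between the sides and no longer passed without the libraries that stood apart. These correlations are over libraries that share the scaling, and they include the libraries by which the sides were chosen.

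The middle 42 libraries, in which Mbp ran from 2183 to 2851 CPM, were ranked with the others but placed on neither side. There the slope of each gene over log2 Mbp was tested with edgeR's quasi-likelihood test and Benjamini-Hochberg adjustment, and 17 of 16548 genes passed (0.103%), 16 with a positive (0.0967%) and 1 with a negative slope (0.00604%). A slope of 1 means that the gene changed in proportion to Mbp. Mag had a slope of 0.88 ± 0.14 (SE, adjusted p = 0.0019), Mog 1.07 ± 0.18 (adjusted p = 0.00261), Mobp 1.05 ± 0.19 (adjusted p = 0.00383), Bcas1 1.01 ± 0.17 (adjusted p = 0.00279) and Cnp 0.94 ± 0.17 (adjusted p = 0.00468). Among the genes that passed, the steepest positive slopes were those of Serpinb1a, a protease inhibitor, at 1.44 ± 0.29 (adjusted p = 0.0217), Car14, a carbonic anhydrase, at 1.28 ± 0.21 (adjusted p = 0.0019) and Gjb1, connexin 32, at 1.20 ± 0.21 (adjusted p = 0.00383). These 3 were picked as the largest, and over all 84 libraries their slopes were 0.81, 0.71 and 0.83. Ppp1r14a, Galnt6, Opalin, Mcam, Lpar1, Pllp, Prr18 and Csrp1 passed as well, with slopes from 0.76 to 1.17. The gene with a negative slope, Tnfrsf14, was at 0.442 CPM in the myelin-rich and 0.445 CPM in the myelin-poor libraries.

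Of these 17 genes 16 were also among those called between the sides, with the same sign, which is 94.1% of the middle calls and 2.30% of the side calls. Slopes pointed the same way far beyond the genes that passed: 472 of 491 genes higher between the sides (96.1%) had a positive slope in the middle libraries, and 182 of 198 lower genes (91.9%) a negative one, where 50.1% of all genes were positive. An unadjusted p under 0.05 was reached by 154 of these 491 higher and 13 of these 198 lower genes, and by 471 of all 16548 genes. In the compact myelin list all 21 slopes were positive with a median of 0.78, in the gap junction and support list all 17 with a median of 0.80, and in the precursor list 7 of 12 with a median of 0.07. For cholesterol synthesis 17 of 26 were positive with a median of 0.07. Among astrocyte and microglia genes 19 of 20 and 18 of 20 slopes were positive, with medians of 0.36 and 0.35, although 0 of either passed and 0 of the microglia genes had been called between the sides.

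**Figure D4:**
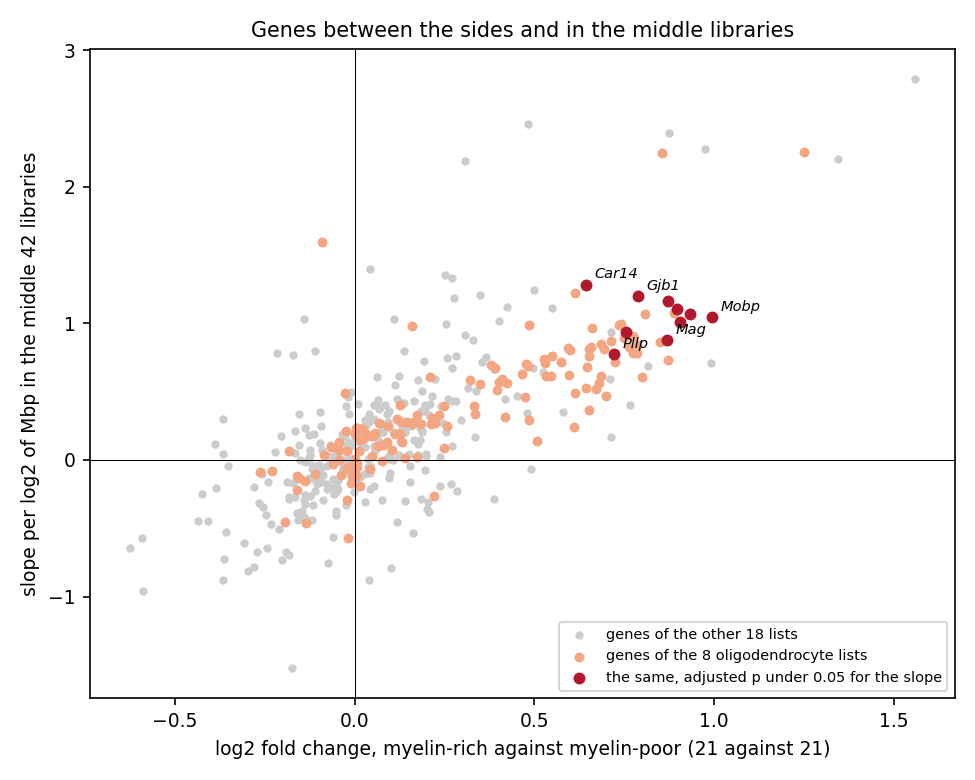
Slope per log2 of Mbp in the middle 42 libraries (y axis) against the log2 fold change between the sides (x axis) for genes of the lists other than Ttr, with the 8 oligodendrocyte lists in orange and, of these, genes past an adjusted p of 0.05 for the slope in dark red. The dark red points lie at slopes from 0.78 for Pllp to 1.28 for Car14.

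Whether the gradient differed between the High and Low Drinker groups was tested as an interaction of side and group, on sides that had been chosen by Mbp without regard to group. At an adjusted p under 0.05 edgeR called 0 of 16763 genes (0%), with 488 at an unadjusted p under 0.05 and a lowest adjusted p of 0.625. limma-voom called 0, with 454 at an unadjusted p under 0.05.

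The High and Low Drinker groups did not differ detectably in Mbp itself, at 2485 ± 605 normalised CPM (SD, n = 44) in High and 2689 ± 818 (n = 40) in Low Drinker libraries. The log2 difference, High minus Low Drinker with sheet set and sex in the model, was -0.12 ± 0.09 (SE, adjusted p = 0.497). Of the 22 compact myelin genes 0 passed between these groups, where 672 of 17071 genes did (3.94%), 1.86% higher and 2.08% lower in High Drinker libraries. Between males and females the difference in Mbp was -0.06 (adjusted p = 1). Adding log2 Mbp to that model changed the group calls to 557 (3.26%, with 1.63% higher and 1.63% lower), of which 518 were among the 672. In that fit 154 calls were lost and 39 gained. Without Mbp in the model, 17 genes were called both between these groups and between the sides. They were 2.53% of the group calls, where 4.16% of all genes were called between the sides. They were also 2.44% of the side calls, where 3.94% of all genes were called between these groups. Neither share was above that of all genes. Padi2, called between these groups at 0.75 ± 0.13 (adjusted p = 3.01e-05), stayed at 0.79 with Mbp in the model (adjusted p = 7.83e-06).

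With Mbp in the model, 2 of the compact myelin genes passed between these groups: Mobp at 0.14 (adjusted p = 0.000334) and Mal at 0.12 (adjusted p = 0.0478), each higher in High Drinker libraries at a given Mbp. After that result was seen, the ratios of Mag, Mobp and Cnp to Mbp were compared directly by a two-sided permutation test, adjusted over the 3. The permutations over all libraries took no account of sheet set or sex, although the groups were spread unevenly over the sheet sets. These libraries and this contrast had prompted the comparison, so its p-values restate that call and add no support to it. The log2 ratio of Mobp to Mbp was -1.59 ± 0.09 (SD, n = 44) in High and -1.73 ± 0.14 (n = 40) in Low Drinker libraries, a difference of 0.14 (permutation p = 2e-05, the smallest these permutations give, adjusted p = 6e-05). For Mag to Mbp the difference was 0.08 (-3.47 ± 0.09 against -3.55 ± 0.16, permutation, adjusted p = 0.00168) and for Cnp to Mbp 0.09 (-2.73 ± 0.10 against -2.83 ± 0.19, permutation, adjusted p = 0.00218). The groups overlapped in all 3 ratios. A ratio shows unequal change of its parts and not which part changed.

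Within sheet set 1 (30 High and 18 Low Drinker libraries) the differences were 0.11 for Mag, 0.06 for Mobp and 0.10 for Cnp, and within sheet set 2 (11 and 19) 0.09, 0.22 and 0.08. The mean log2 ratio of Mobp to Mbp was -1.66 in set 1 and -1.81 in set 2 in Low Drinker libraries, and -1.60 and -1.59 in High Drinker libraries. The direction thus held in both sets, but Mobp did not pass in set 1 (permutation, adjusted p = 0.0621) and Cnp passed in neither (0.0502 and 0.0682). Low Drinker 8 had the lowest ratios of Mag and Cnp to Mbp, at -4.33 and -3.71. Without the 6 libraries that stood apart the differences were 0.06 for Mag, 0.12 for Mobp and 0.07 for Cnp (permutation, adjusted p = 0.00334, 6e-05 and 0.00334).

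**Figure D5:**
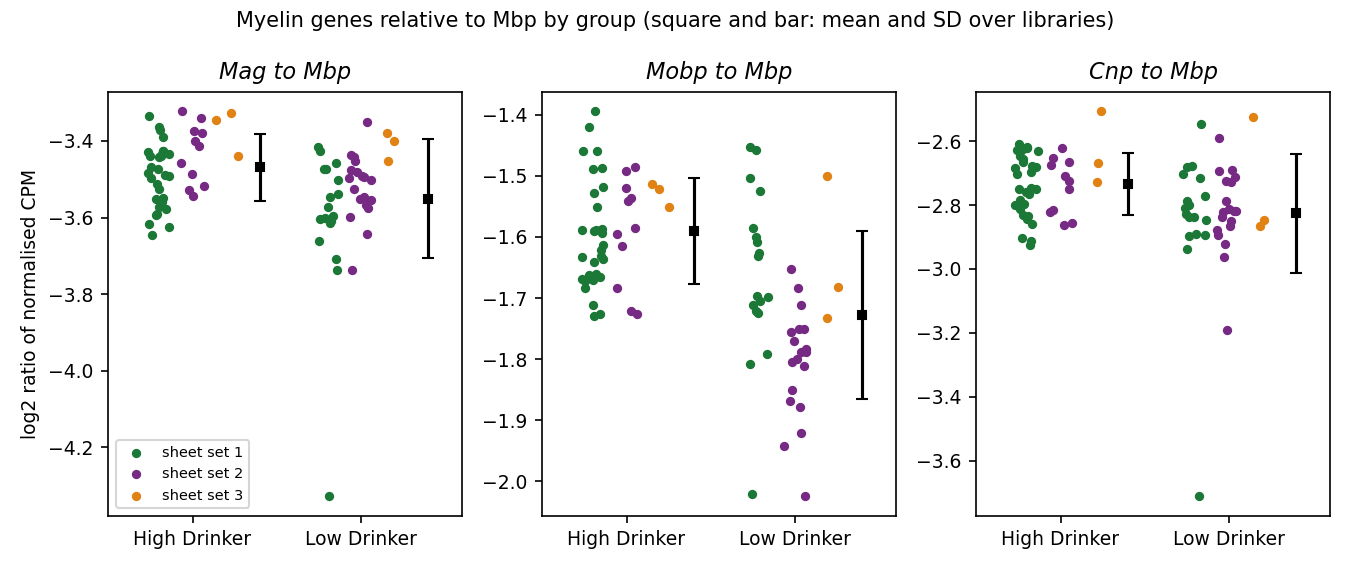
Log2 ratio of the normalised CPM of Mag, Mobp and Cnp to that of Mbp in each library by group, coloured by sheet set, with a square and bar at the mean and SD of each group. High Drinker libraries average higher in every panel, by 0.08, 0.14 and 0.09, and Low Drinker 8 lies far below the others for Mag and Cnp.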

How the data were processed

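RNA of the ventrolateral striatum was amplified with the Ovation RNA-Seq v2 kit and sequenced as single 100 bp reads, 6 libraries per lane, per the labels' protocols. The submitters' processing notes name FastQC, STAR, featureCounts of Subread, edgeR and the build mm10, without versions. The authors deposited 1 table of raw counts for 43629 genes, and its unit was checked against the values. The kit as described does not mark strand, so overlapping genes cannot be told apart: among 89 genes named by the rule, 5 share exon bases with a same-strand neighbour and 20 with one on the opposite strand.

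CPM for the ranking was count over column sum. Genes were filtered with filterByExpr, scaled by TMM and tested with edgeR's quasi-likelihood test (edgeR 4.0.16, limma 3.58.1 and DESeq2 1.42.0 in R 4.3.3), with Benjamini-Hochberg adjustment over all tested genes and a threshold of 0.05. Normalised CPM are TMM-scaled over all 84 libraries. Sides were fitted with group, the middle 42 libraries with group and log2 Mbp, and High against Low Drinker with sheet set and sex. Make-up was tested with Fisher's exact test or 100000 permutations. Correlations used residuals over group of log2 CPM with a prior count of 2.

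Named were all tested compact myelin genes, up to 4 of every other list past the threshold by size, the 12 largest higher and lower genes with at least 5 CPM, an established symbol and 1 sign in both groups and in sheet sets 1 and 2, the 10 highest and 5 lowest correlations with Mbp, and the 5 largest middle slopes. Genes without overlap between the sides and all 17 middle calls are named as well; further list members and Tcf7l2 and Slc17a6 are examples chosen after their values were seen. Some genes that the rule names are not reported here. The libraries, the members and the 26 lists (446 of 448 symbols matched) were chosen with earlier results of these data known. Libraries stood apart where the median correlation with the others over 10684 genes fell more than 1.5 interquartile ranges below the lower quartile. That multiple was chosen after 3 had been tried, and the low-count filter of that last fit (by group and sex) was kept after 2 other filters had been tried; all are in the alternatives.

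On simulated counts for 16678 genes, the comparison of sides recovered 60% of changes of 1.25-fold, 86% of 1.5-fold, 84% of 2-fold and 100% of 4-fold, with 9 false among 174 calls. For the middle libraries, simulated on 16981 genes, 28% of slopes of 1 and 64% of slopes of 2 were recovered, with 0 false among 48 calls.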

Additional observations from a re-analysis of the deposited data

How the results depend on the processing

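Alternatives marked added were chosen after seeing the data. Lower genes numbered 305 with DESeq2, 371 with all 84 libraries in the fit and 342 with sides of 28. Ranking by Mag, Mobp and Cnp in place of Mbp, which shares 18 of 21 libraries on each side, gave 820 higher and 502 lower genes. Sheet set 1 alone gave 277 higher and 170 lower genes, and sheet set 2 alone 121 and 13. A slope over log2 Mbp in all 84 libraries called 6.72% of genes as higher and 4.43% as lower, or, with the low-count filter on Mbp and group, 6.56% and 3.93% (added), against 2.97% and 1.19% between the sides. The medium spiny neuron score gave 1054 and 853 (added). The cause of these shifts was not tested. Each sheet set alone also held fewer libraries. Leaving out Low Drinker 8, 2 or 32, the only single libraries left out in turn, gave 453 to 502 higher and 197 to 206 lower genes (added), and leaving out the 3 libraries farthest apart 494 and 174 (added). In the middle libraries, negative slopes numbered 0 with sex and sheet set in the model and 8 without a filter, and positive slopes 28 with the medium spiny neuron score (added). Between High and Low Drinker, other low-count filters gave 292 and 404 or 288 and 363 genes, and with Mbp in the model 269 and 313 or 259 and 283 (added). The ratio of Mobp to Mbp in sheet set 1 (0.0635) and of Cnp to Mbp in sets 1 and 2 (0.103 and 0.079) no longer passed. Over the named genes, 1581 values under alternatives kept direction and side of the threshold, 192 no longer passed and 5 changed sign: Prlr in sheet set 2 (-0.14), and Omg, not called in any, with sides of 10 (-0.031), in sheet set 1 (-0.0308) and in the slopes over 84 libraries (-0.0173 and -0.0167). The ratios were added too. RLE size factors, limma-voom, sex and sheet set as further terms, and ranking by TMM-scaled Mbp left the counts between the sides within 1.5 times, although 7 named genes no longer passed with sex and sheet set: Prlr, Casr, Pvalb, St18, Il33, Gpr17 and Tnfaip8l3.

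No paired analysis was possible because the labels do not pair High Drinker with Low Drinker libraries.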
